A study of Mus musculus with 6 samples.

Results

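The AP-1 and EGR immediate early factors described here are 10 mouse genes, chosen by name: the Fos family members Fos, Fosb, Fosl1 and Fosl2, the Jun family members Jun, Junb and Jund, and the zinc finger factors Egr1, Egr2 and Egr3. All 10 had a probe on the array, with 13 probes of 41174 in all. Tests took the probes that had an unflagged spot on each array and, in 1 group or more, a signal well above background on both of its arrays. On that rule 9 of the 10 genes were tested among 15650, and Fosb was not. A probe that passed in 1 group alone could be tested against a dim group, so counts over the 9 tested genes are no counts over all members.

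The samples were mouse embryonic fibroblasts (MEFs) at day 8 of reprogramming, which were infected with viruses and then kept in a serum medium containing leukaemia inhibitory factor. All cultures are labelled as infected with the factors abbreviated SKO, whose letters the labels do not spell out. The 3 groups were SKO plus Gadd45a (written Ga in the sample titles), SKO plus G39A, described by the submitters as a negative mutant of Gadd45a, and SKO plus Flag, the control. Each group had 2 arrays, numbered replicate 1 and replicate 2, and RNA from each culture was labelled with Cy3 and hybridised to a 1-colour Agilent array. The labels name neither promoter nor clone for the introduced genes, and they leave unsaid whether the replicates are separate cultures. The p-values therefore cover the spread between these 6 arrays, which may be technical.

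AP-1 is a dimer of basic leucine zipper proteins, usually a Fos protein with a Jun protein, that binds a short palindromic element in promoters and enhancers. EGR proteins bind GC-rich elements through zinc fingers. Both groups are immediate early factors: serum, growth factors and stress switch on several of their genes within minutes, through ERK signalling and serum response factor (SRF), without new protein synthesis. The transcripts are short-lived, and Fosl1 (Fra-1) and Fosl2 (Fra-2) tend to be made later and for longer than Fos and Fosb. In fibroblasts AP-1 is best known for driving genes of matrix remodelling and proliferation and for occupying enhancers that are active in somatic cells.

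The arrays of the 2 replicate numbers stood far apart. Between 56.5% and 62.5% of probes were well above background on an array. Of 10 fibroblast markers, 9 were well above background on all 6 arrays, and Dcn missed on 1 array of replicate 1. The pluripotency factor Pou5f1 and the epithelial genes Cdh1 and Epcam were well above background on all 3 replicate 1 arrays and on none of replicate 2. Pou5f1, which is also a reprogramming factor, gave signals of 3.6 to 4.4 in replicate 2 and 3851 to 6363 in replicate 1, so the arrays do not show that cultures of both numbers carried one and the same factor set. The probe for Gadd45a gave signals of 1870.1 in Gadd45a, 2147 in G39A and 2309 in Flag cultures of replicate 2, and 560.1, 1395 and 1017 in Gadd45a, G39A and Flag cultures of replicate 1. Whether that probe reads an introduced copy is not known, so it checks no label. All 3 replicate 2 arrays lay on 1 slide and the replicate 1 arrays on 2 others, so the replicate number, the slide and any difference between the cultures cannot be told apart. Comparisons between groups are therefore also given within each number. In replicate 1 the Gadd45a and Flag arrays shared a slide and the G39A array lay alone on another. Differences from G39A within replicate 1 are therefore also differences between slides.

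The promoters below are those of the 4 members that changed between the replicate numbers, shown because Fos and Egr2 moved one way and Fosl2 and Jun the other. Each window spans a RefSeq transcription start (GRCm38.p6) and is written along the gene's strand: Fos at chr12:85473640-85473939 (plus strand), Egr2 at chr10:67537619-67537918 (plus strand), Fosl2 at chr5:32136222-32136521 (plus strand) and Jun at chr4:95052173-95052472 (minus strand). Capitals mark a motif that was found.
Fos: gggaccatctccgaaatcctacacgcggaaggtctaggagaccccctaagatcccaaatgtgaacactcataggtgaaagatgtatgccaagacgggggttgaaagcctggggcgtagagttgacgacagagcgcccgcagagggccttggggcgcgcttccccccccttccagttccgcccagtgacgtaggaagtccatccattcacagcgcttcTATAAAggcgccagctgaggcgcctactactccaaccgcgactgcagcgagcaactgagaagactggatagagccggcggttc
Egr2: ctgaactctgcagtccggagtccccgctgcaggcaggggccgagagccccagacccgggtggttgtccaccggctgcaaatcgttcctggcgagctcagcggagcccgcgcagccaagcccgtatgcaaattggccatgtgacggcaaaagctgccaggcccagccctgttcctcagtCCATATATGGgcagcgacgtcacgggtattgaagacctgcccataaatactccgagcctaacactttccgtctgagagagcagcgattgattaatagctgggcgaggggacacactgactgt
Fosl2: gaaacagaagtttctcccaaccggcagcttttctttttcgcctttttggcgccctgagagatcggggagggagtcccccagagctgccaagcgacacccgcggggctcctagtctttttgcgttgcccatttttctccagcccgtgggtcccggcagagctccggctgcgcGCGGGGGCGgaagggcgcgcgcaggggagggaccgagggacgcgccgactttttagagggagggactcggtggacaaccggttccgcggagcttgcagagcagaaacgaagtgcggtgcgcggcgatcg
Jun: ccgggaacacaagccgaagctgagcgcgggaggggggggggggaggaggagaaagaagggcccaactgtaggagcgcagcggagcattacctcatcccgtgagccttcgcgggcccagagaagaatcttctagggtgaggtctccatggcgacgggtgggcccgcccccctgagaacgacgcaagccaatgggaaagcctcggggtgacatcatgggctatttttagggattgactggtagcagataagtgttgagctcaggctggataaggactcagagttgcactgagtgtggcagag
The motifs searched, on both strands, were the AP-1 element TGANTCA, the CRE TGACGTCA, the EGR site GCGNGGGCG, the TATA box TATAAA and the SRF-binding CArG box. In the Fos window the capitals are a TATA box whose first base is 33 before the start. In the Egr2 window they are a CArG box that begins 72 bases before the start. The Fosl2 window holds an EGR site that begins 79 bases before the start. None of these motifs was in the Jun window, which says only that these letters are not there. Over all 32851 RefSeq promoter windows of that length, 13.6% held TATAAA, 1.63% a CArG box, 5.55% the EGR site, 7.81% the AP-1 element and 1.79% the CRE. RefSeq has 5 Egr2 windows: the element shown lies in 3 that overlap each other, and 1 other window holds a different CArG box. Fosb, whose window also holds an EGR site, was not tested. Junb, whose window holds the letters TATAAA from base 1, the start itself, did not pass the main test. RefSeq windows for Fosl1, Egr1 and Egr3 were not analysed here. No motif here overlapped another.

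**Figure D1:**
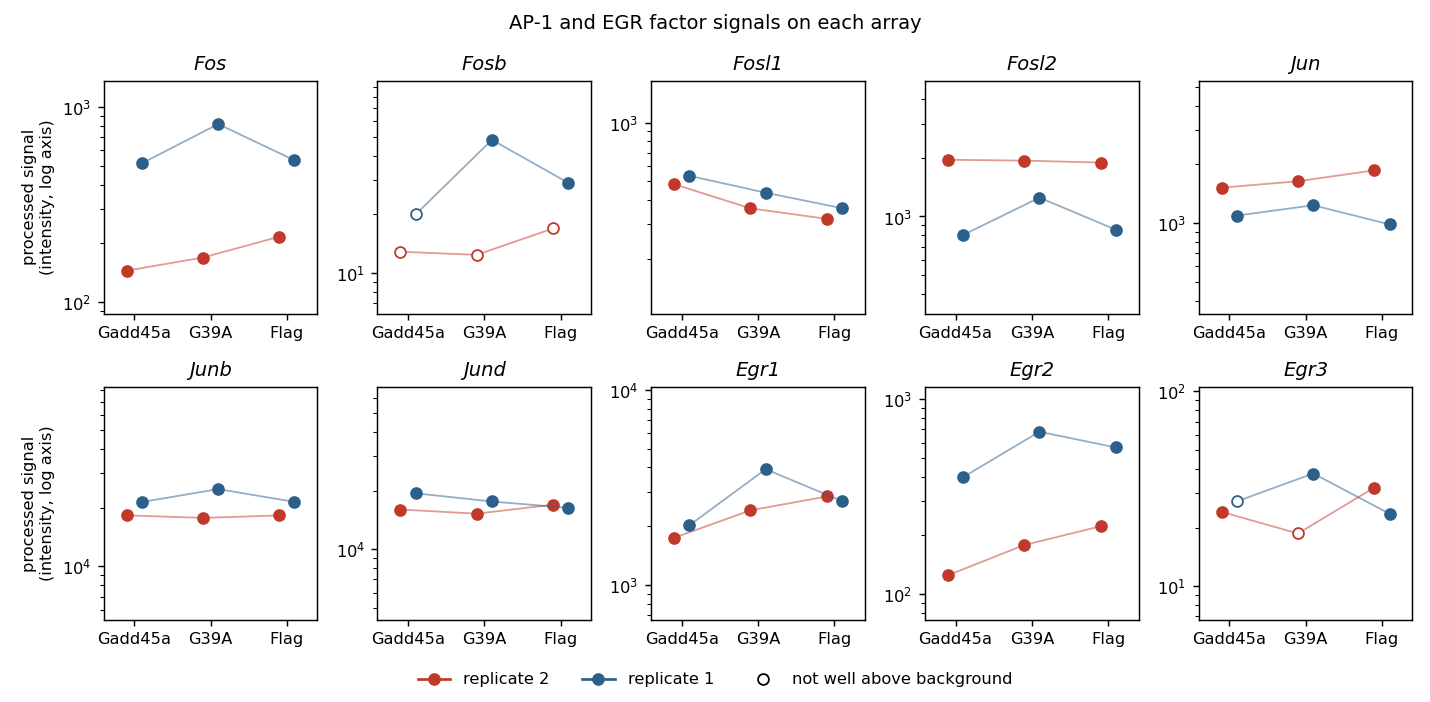
Processed signal (intensity, log axis) of each of the 10 genes on each array, with Gadd45a, G39A and Flag from left to right, replicate 2 in red and replicate 1 in blue; open circles were not well above background. Fos and Egr2 lie lower on every replicate 2 array, Fosl2 and Jun lie higher, and the Fosl1 and Egr1 panels slope in opposite directions from Gadd45a to Flag.

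Replicate 2 was set against replicate 1 over the 3 groups. Of the 9 tested members, 4 passed limma's test at an adjusted p under 0.05: Fos and Egr2 fell in replicate 2, by 3.09-fold and 2.78-fold, and Fosl2 and Jun rose, by 2.29-fold and 1.71-fold. The same test passed 56.4% of all 15650 genes, 33% higher and 23.4% lower, so 4 of 9 is not above the background. Past a 2-fold change were 3 of 9 members (Fos, Egr2 and Fosl2), against 20.8% of all genes. The arrays of the 2 numbers did not overlap for 5 of 9 members, the same 4 and Junb, against 67.3% of all genes. The median difference of the tested members was -0.08 on the log2 scale and that of all genes 0.11.

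Fos, the founding member of its family and a classic readout of serum response, was measured by 10 spots of 1 probe (mm9 chromosome 12, 86817900 to 86817959). Its signal was 145 in Gadd45a, 169 in G39A and 217 in Flag cultures of replicate 2. In replicate 1 it was 515 in Gadd45a, 820.0 in G39A and 534 in Flag cultures. Every replicate 2 array was thus below every replicate 1 array. The log2 difference, replicate 2 minus replicate 1, was -1.63 ± 0.16 (SE, 3 arrays against 3; limma, adjusted p = 0.00196).

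Fosb, which forms AP-1 dimers much as Fos does, lay near the detection limit (mm9 chromosome 7, 19888477 to 19888536). None of the replicate 2 arrays was well above background, with 12.8 in Gadd45a, 12.4 in G39A and 16.9 in Flag cultures. In replicate 1 the signal was 48.2 in G39A and 29.0 in Flag, both well above background, and 20.0 in Gadd45a, which was not. With 4 of the 6 arrays dim, 1 of them in replicate 1, no fold is given. Fosb entered no main test; with dim probes kept, its log2 difference was -0.95 (limma, adjusted p = 0.101).

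Fosl1, the AP-1 subunit that rises with sustained ERK activity, did not follow Fos (mm9 chromosome 19, 5455496 to 5455555). It read 483 in Gadd45a, 363 in G39A and 320.3 in Flag cultures of replicate 2, and 533, 436 and 363 in Gadd45a, G39A and Flag cultures of replicate 1. The arrays of the 2 numbers overlapped, and the log2 difference was -0.02 ± 0.08 (SE; limma, adjusted p = 0.831).

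Fosl2, which encodes Fra-2, moved opposite to Fos. Its brighter probe (mm9 chromosome 5, 32459624 to 32459683) gave 1955 in Gadd45a, 1935 in G39A and 1891 in Flag cultures of replicate 2. On the replicate 1 arrays it gave 804 in Gadd45a, 1249.6 in G39A and 856 in Flag. All replicate 2 arrays were higher, with a log2 difference of 1.19 ± 0.13 (SE; limma, adjusted p = 0.00259). A second Fosl2 probe reads another stretch of the same transcript, starting at base 738 against base 5274 (mm9 chromosome 5, 32455088 to 32455147), and shares no base with the first. Its sequence is shown because it reads a separate stretch of the RNA, on the same arrays.
Fosl2 probe: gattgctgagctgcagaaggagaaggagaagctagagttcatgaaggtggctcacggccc
This probe was dim: it gave 51.7, 45.1 and 48.7 in Gadd45a, G39A and Flag cultures of replicate 2, all well above background, and 27.9, 38.1 and 20.0 in those of replicate 1, where only the G39A array was. Fitted with all probes, its log2 difference was 0.98 ± 0.18 (SE; limma, adjusted p = 0.0111), the same direction as that of the brighter probe, but with 2 of 3 replicate 1 arrays dim its size is not a measured one.

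Jun, the main partner of the Fos proteins, was read by 9 to 10 spots of 1 probe on each array (mm9 chromosome 4, 94715864 to 94715923). Its signal was 1518 in Gadd45a, 1638 in G39A and 1863 in Flag cultures of replicate 2, and 1092, 1233 and 984 in Gadd45a, G39A and Flag cultures of replicate 1. The numbers did not overlap, and the log2 difference was 0.78 ± 0.10 (SE; limma, adjusted p = 0.00378).

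Junb, a Jun protein often found to restrain proliferation, was slightly lower on every replicate 2 array. Its brighter probe gave 18286 in Gadd45a, 17746 in G39A and 18275 in Flag cultures of replicate 2, and 21407, 24936 and 21441 in those of replicate 1, a log2 difference of -0.14 ± 0.08 (SE; limma, adjusted p = 0.2). The second Junb probe, which shares 22 bases with the first and is not independent of it, had a difference of -0.12 ± 0.09. After quantile normalization the difference of Junb was -0.35 and passed the test (limma, adjusted p = 0.0203). Jund, the Jun protein that is usually present without stimulation, gave 15996, 15227 and 16933 in Gadd45a, G39A and Flag cultures of replicate 2, and 19375, 17586 and 16311 in those of replicate 1. The Jund difference of 0.03 ± 0.08 (SE; limma, adjusted p = 0.762) turned to -0.17 after quantile normalization and passed the test under neither scaling.

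Among the EGR factors, Egr2, which is induced by serum in fibroblasts and directs myelination in Schwann cells, behaved like Fos across the numbers. Its 10 spots (mm9 chromosome 10, 67004758 to 67004817) averaged 125 in Gadd45a, 179 in G39A and 223 in Flag cultures of replicate 2. In replicate 1 they averaged 399 in Gadd45a, 682 in G39A and 566 in Flag cultures. No replicate 2 array reached the lowest replicate 1 array, and the log2 difference was -1.47 ± 0.10 (SE; limma, adjusted p = 0.000704).

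Egr1, the EGR factor most used as a marker of ERK signalling, overlapped between the numbers (mm9 chromosome 18, 35024395 to 35024454). Its signal was 1741 in Gadd45a, 2409 in G39A and 2837 in Flag cultures of replicate 2, and 2019.9, 3916 and 2687 in Gadd45a, G39A and Flag cultures of replicate 1. The log2 difference was -0.10 ± 0.13 (SE; limma, adjusted p = 0.533). Egr3, a close relative of Egr2, was near background: 1 of its probes gave 24.1, 18.6 and 32.1 in Gadd45a, G39A and Flag cultures of replicate 2 and 27.3, 37.9 and 23.5 in those of replicate 1, and was well above background on 4 of 6 arrays. The other Egr3 probe was dim on all 6 arrays, with signals of 3.65 to 7.76. The tested Egr3 probe, which passed the filter through the Flag group alone, differed by -0.08 ± 0.25 (SE; limma, adjusted p = 0.811).

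**Figure D2:**
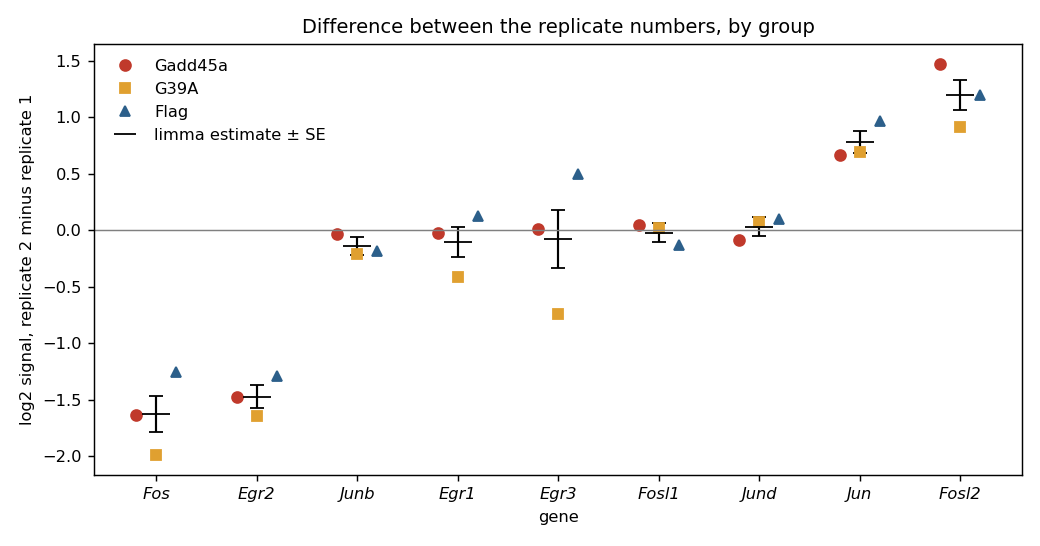
Log2 difference, replicate 2 minus replicate 1, of the 9 tested members within Gadd45a (red circles), G39A (orange squares) and Flag (blue triangles), with the limma estimate and its SE as black bars. Fos and Egr2 lie below -1.2 and Fosl2 and Jun above 0.6 in all 3 groups, while the groups part in sign for Egr1, Egr3, Fosl1 and Jund.

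Summed markers of several other cell types differed between the replicate numbers, though not every gene of a set did. The sums are of signals not scaled between arrays. The summed signal of 8 macrophage markers was 4515 to 8206 on the replicate 2 arrays and 1273 to 1494 on those of replicate 1, while Ptprc, the pan-leukocyte gene, was not well above background on any array. The 9 epithelial markers summed to 974 to 2033 in replicate 2 and 4381 to 5301 in replicate 1, the 8 pluripotency markers to 244 to 283 and 4326 to 6832, and the 5 muscle markers to 3699.5 to 4488 and 656 to 818. The 10 fibroblast markers summed to 904213 to 941900.4 in replicate 2 and 626929 to 790093 in replicate 1. Most of the macrophage sum came from Lyz2, and Cd68 went the other way, at 186 to 199 in replicate 2 and 356 to 506 in replicate 1. Among the epithelial genes, Trp63 was lower in replicate 1, where it was not well above background, and Krt18 overlapped between the numbers. Most of the pluripotency sum in replicate 1 came from Pou5f1, also a reprogramming factor. Nanog and Zfp42 were higher there too, but Dppa5a overlapped between the numbers. Sox2 was lower in replicate 1, where it was not well above background. On no array were 3 of the 8 pluripotency genes well above background. In bulk RNA, fewer cells of a type and less RNA per cell cannot be told apart. The part of these shifts in the differences of Fos, Egr2, Fosl2 and Jun was not tested.

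Between the groups, no member passed the test. Gadd45a cultures had higher Fosl1 than Flag cultures, by 1.51-fold, and lower Egr1 and Egr2, by 1.45-fold and 1.56-fold, within both replicate numbers. In limma's test of Gadd45a against Flag 0 of 9 members were called, as were 0% of all genes, and at an unadjusted p under 0.05 stood 1 member, Fosl1, and 97 genes (0.62%). G39A against Flag called 0 of 9 members and 0% of genes, with 0 members and 82 genes (0.524%) at an unadjusted p under 0.05. Gadd45a against G39A called 0 of 9 and 0%, with 2 members, Fosl1 and Egr1, and 114 genes (0.728%) at an unadjusted p under 0.05. Blocking on the replicate number left the calls at 0 in all 3 comparisons. The unadjusted count then was 3 of 9 members (Egr1, Egr2 and Fosl1) for Gadd45a against Flag, where 8.59% of genes passed, the same 3 against G39A, where 8.87% passed, and 0 of 9 for G39A against Flag, where 2.88% passed. In simulated data with changes of 1 and 2 on the log2 scale in Gadd45a, the model without the block recovered 0% and 0% of changed genes and that with the block 27% and 59%, so a count of 0 does not show that the groups were alike.

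Fosl1 was highest in Gadd45a cultures in both numbers, as its signals above show, and the 2 Gadd45a arrays lay above all 4 others. Its log2 difference was 0.69 in replicate 2 and 0.51 in replicate 1 for Gadd45a minus Flag, and 0.47 and 0.44 for Gadd45a minus G39A. The fitted difference from Flag was 0.60 ± 0.16 (SE; limma, adjusted p = 1), and with the replicate block it was 0.60 ± 0.10 (limma, adjusted p = 0.435). G39A differed from Flag by 0.22 in replicate 2 and 0.07 in replicate 1, a fitted 0.14 ± 0.16.

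Egr1 ran the other way. Both Gadd45a arrays lay below all 4 others, with Gadd45a minus Flag at -0.61 in replicate 2 and -0.46 in replicate 1, and Gadd45a minus G39A at -0.41 and -0.80. The fitted difference of Gadd45a from Flag was -0.53 ± 0.22 (SE; limma, adjusted p = 1; with the replicate block, adjusted p = 0.55). G39A minus Flag was -0.20 in replicate 2 and 0.35 in replicate 1, so those groups had no common direction for Egr1. In replicate 1 the G39A array lay on another slide than the Gadd45a and Flag arrays.

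Egr2 was lowest in Gadd45a within each number, with Gadd45a minus Flag at -0.74 in replicate 2 and -0.55 in replicate 1. Its fitted difference of -0.64 had an SE of 0.88 without the block and of 0.12 with it (limma, adjusted p = 0.445). Fos was also lowest in Gadd45a within each number, at -0.48 and -0.10 relative to Flag in replicates 2 and 1, with a fitted -0.29 (limma, adjusted p = 1; with the block, adjusted p = 0.72). Fitted without the block, both were positive when the Gadd45a replicate 2 array was left out (0.10 for Egr2 and 0.53 for Fos) or the Flag replicate 1 array was (0.0031 and 0.34). Each such fit sets 1 array against arrays of both numbers, so it also holds the difference between the numbers. Jund was higher in Gadd45a than in both other groups in each number, by 0.02 and 0.20 relative to Flag, a fitted 0.11 ± 0.17.

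Gadd45a lay on the same side of both other arrays in both numbers for 5 of 9 members: Fosl1 and Jund higher and Egr1, Egr2 and Fos lower. Of all genes 34.3% did so, 15.1% higher and 19.1% lower. The remaining members had no common direction against Flag. Gadd45a minus Flag was 0.15 in replicate 2 and -0.14 in replicate 1 for Fosl2, -0.20 and 0.10 for Jun, 0.10 and -0.05 for Junb, and -0.32 and 0.17 for Egr3. The groups did not overlap for 3 of 9 members (Egr1, Fosl1 and Jund) in Gadd45a against Flag, against 12.9% of all genes, and for the same 3 in Gadd45a against G39A, against 14% of all genes. In G39A against Flag they did not overlap for 2 of 9 members (Fosl1 higher and Jund lower), against 10.2% of all genes. The comparisons share the Flag arrays or the Gadd45a arrays and are not independent of each other.

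**Figure D3:**
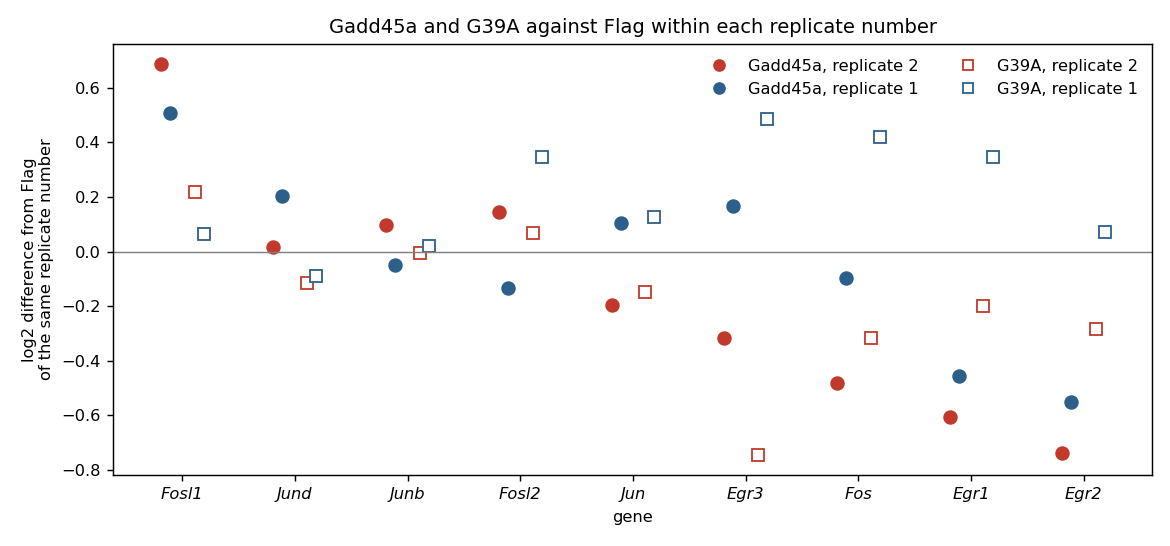
Log2 difference from the Flag array of the same replicate number for Gadd45a (filled circles) and G39A (open squares), replicate 2 in red and replicate 1 in blue, for the 9 tested members. Both Gadd45a points lie above 0.5 for Fosl1 and below -0.4 for Egr1 and Egr2, while the G39A points of Egr1 and Egr2 lie on both sides of 0.

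Summed markers of other cells differed between the groups too. These sums, too, are of signals not scaled between arrays. In Gadd45a, G39A and Flag cultures the array's 75th percentile was 750, 783 and 803 in replicate 2. In replicate 1 it was 857, 953 and 830. Unscaled, only the neural sum of those given here for both numbers had the groups in the same order in both. The G39A replicate 1 array was the brightest by that percentile, so the order of the groups can change with scaling. The 9 epithelial markers summed to 2033 in Gadd45a, 1254 in G39A and 974 in Flag cultures of replicate 2, with 1735, 898 and 716 from Krt18. In replicate 1 they summed to 5195, 5301 and 4381. The 5 endothelial markers summed to 1204 in Gadd45a, 599 in G39A and 599.5 in Flag cultures of replicate 2, mostly from Emcn, while Pecam1 and Cdh5 were not well above background on any array. In replicate 1 those sums were 982, 1061 and 940.0. The macrophage markers, mostly Lyz2, summed to 4515, 5448 and 8206 in Gadd45a, G39A and Flag cultures of replicate 2 and to 1388, 1494 and 1273 in replicate 1. The 5 muscle markers summed to 4488 in Gadd45a, 3699.5 in G39A and 4099 in Flag cultures of replicate 2 and to 818, 707 and 656 in replicate 1, nearly all from Acta1 and Des, while Myod1 and Myog were not well above background on any array. The 5 neural markers, mostly Nes, summed to 6133, 5731 and 5427 in Gadd45a, G39A and Flag cultures of replicate 2 and to 11341, 8835 and 8478 in replicate 1. The 8 pluripotency markers, mostly Pou5f1, summed to 5793, 6832 and 4326 in Gadd45a, G39A and Flag cultures of replicate 1. The part of these sums in the differences of Fosl1, Egr1 and Egr2 was not tested.

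Fosl1 was set against Egr1 by subtracting their log2 signals on each array. The size of this value depends on the probes, and only its change between arrays can be read. It was -1.85 in Gadd45a, -2.73 in G39A and -3.15 in Flag cultures of replicate 2, and -1.92, -3.17 and -2.89 in those of replicate 1. The replicate numbers overlapped, with a mean difference of 0.08 for replicate 2 minus replicate 1 (exact two-sided permutation test over the 6 arrays, p = 0.7; the smallest possible is 0.1). Both Gadd45a arrays lay above the other 4, by a mean of 1.10 on the log2 scale (exact two-sided permutation test, 15 splits, p = 0.0667, which is the smallest that 2 arrays against 4 can give). That second contrast was chosen after its values were seen. The pair of genes, too, was named with earlier results of these data known, so these p-values are no independent test. Against Flag alone the difference was 1.13 and against G39A alone 1.06, each with an exact p of 0.333, the smallest for 2 against 2.

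**Figure D4:**
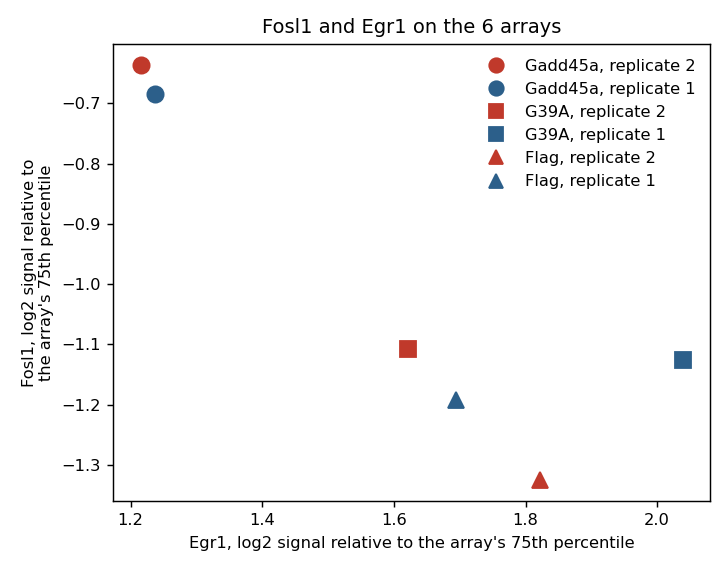
Fosl1 against Egr1 on the 6 arrays, each as log2 signal relative to the array's 75th percentile, with circles for Gadd45a, squares for G39A and triangles for Flag, replicate 2 in red and replicate 1 in blue. The 2 Gadd45a arrays stand at the upper left, with the highest Fosl1 and the lowest Egr1 of the 6.

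The genes whose profile over the 6 arrays was nearest to that of Fosl1, by root-mean-square distance of mean-centred log2 signals, were Dcbld2 (0.0951), Hspb1, which encodes the small heat shock protein HSP27 (0.104), Prss46 (0.105) and Nrg1, which encodes the ErbB ligand neuregulin 1 (0.108). All 4 had their highest signals on the 2 Gadd45a arrays, which follows from choosing them by likeness to Fosl1. The nearest to Egr1 were Selenop, which encodes selenoprotein P (0.0869), Csrp2bp (0.101), Ccdc173 (0.105) and Abhd3 (0.108). These are the smallest distances among all tested genes with a proper name and carry no test.

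The other genes of the pathways were counted from 6 lists. The lists were chosen with earlier results of these data known, so their counts are no independent test. None of their members was called in Gadd45a against Flag, nor in Gadd45a against G39A or G39A against Flag. Of 18 tested AP-1 targets, genes known to be driven by AP-1 in various cells, 16 had a higher level in Gadd45a than in Flag cultures, with a median of 0.28 on the log2 scale, while 44.9% of all genes were higher and their median was -0.02. Within the numbers, 11 of the 18 were higher in both and 0 lower in both, while 23.4% of all genes were higher in both and 33.1% lower in both. Their median was 0.57 in replicate 2 and 0.19 in replicate 1, against 0.00 and -0.04 for all genes. Against G39A, 16 of the 18 were again higher, with a median of 0.41, and G39A against Flag had 7 of 18 higher, with a median of -0.06.

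Among AP-1 targets, Areg, which encodes the EGF receptor ligand amphiregulin, differed from Flag by 2.47 in replicate 2 and 0.56 in replicate 1, a fitted 1.52 ± 0.62 (SE; limma, adjusted p = 1), which was 0.77 with normexp background correction and 0.90 without the Flag replicate 2 array. Plaur, the urokinase receptor, differed by 0.79 and 0.52, a fitted 0.65 ± 0.25 (SE; limma, adjusted p = 1), which was 0.42 without the Flag replicate 2 array. Sprr1a, a cornified envelope gene, differed by 1.14 and 1.25, and Ccl2, a monocyte chemokine, by 1.11 and 0.30. Mmp3, a stromelysin, was at 0.34 in replicate 2 and -0.94 in replicate 1, and Ccnd1, which encodes cyclin D1, at -0.57 and 0.03. The list thus held members with no common direction, though most pointed upward.

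Of 22 tested other immediate early genes, 18 were higher in Gadd45a than in Flag cultures with a median of 0.17, of which 10 were higher in both numbers and 3 lower in both, beside the same 23.4% and 33.1% of all genes. Within the numbers the median was 0.33 in replicate 2 and -0.01 in replicate 1. Plk3, a stress-responsive polo-like kinase, differed by 0.72 in replicate 2 and 0.37 in replicate 1, and Zfp36, which destabilises cytokine and immediate early mRNAs, by 0.32 and 0.20. Ptgs2, the inducible cyclooxygenase, differed by 1.61 and 0.07. Arc, best known from neurons, was lower, at -0.19 and -0.43, as was Klf10 at -0.21 and -0.27. None of these passed the test. Against G39A, 18 of the 22 were also higher, with a median of 0.17, while 49.2% of all genes were higher. Within the numbers the median against G39A was 0.32 in replicate 2 and -0.09 in replicate 1.

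The remaining lists had medians near that of all genes in Gadd45a against Flag: 0.05 for 12 other AP-1 basic zipper partners, 0.02 for 15 genes of ERK signalling and SRF, -0.02 for 9 coregulators and turnover factors and 0.00 for 10 EGR targets, with 7, 8, 4 and 5 members higher. Against G39A, 6, 8, 4 and 9 members of these lists were higher, while 49.2% of all genes were. The EGR target median was 0.10 in Gadd45a against G39A and -0.10 in G39A against Flag. Against Flag, Atf3, a stress-induced partner of Jun, was at 0.30 ± 0.20. Nab2, the EGR corepressor that EGR proteins themselves induce, counted among both coregulators and EGR targets, was at -0.39 ± 0.74. It turned positive without the Gadd45a replicate 1 array (0.55) or the Flag replicate 2 array (0.046), in fits that also hold the difference between the numbers.

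**Figure D5:**
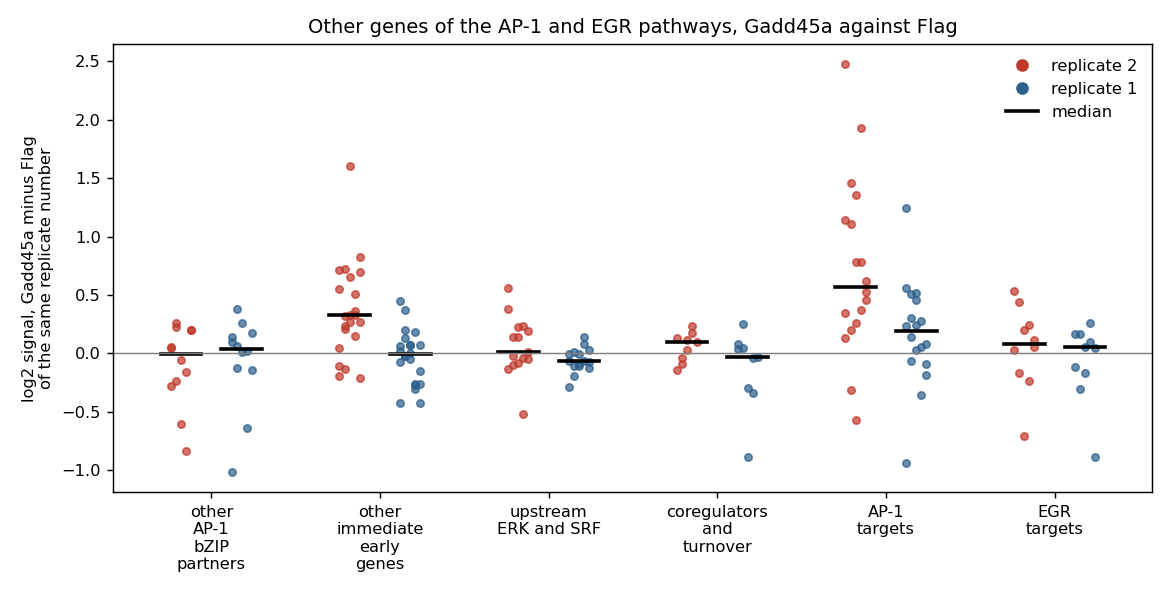
Log2 difference of Gadd45a from Flag within replicate 2 (red) and replicate 1 (blue) for each tested gene of the 6 lists, with the list median as a black bar. The AP-1 target medians lie at 0.57 and 0.19, the other immediate early genes at 0.33 and -0.01, and the remaining lists near 0.

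Across the replicate numbers the lists held calls both ways, and their counts stand beside a background of 56.4% of all genes called, 33% higher and 23.4% lower. Of 12 other AP-1 partners, 6 rose and 3 fell in replicate 2. The Jun repressor Jdp2 rose by 1.46 on the log2 scale, while the small Maf proteins Mafk and Maff had differences of -1.59 and -1.31 and fell. Of 22 immediate early genes, 7 rose and 9 fell. Nr4a1, an orphan nuclear receptor induced along with Fos and Egr1, fell by 2.29 (SE 0.15; limma, adjusted p = 0.000587), and Klf10, a TGF-beta inducible repressor, fell by 1.44. Ptgs2 fell by 2.07, a call lost without either G39A array (-1.77) or either Flag array (-1.83). Ier5 rose by 2.05.

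Of 15 genes of ERK signalling and SRF, 6 rose and 4 fell: Mrtfa, the actin-regulated SRF coactivator, rose by 1.26, the ribosomal S6 kinase gene Rps6ka1 rose by 1.24 (0.63 with the mean of its probes) and its relative Rps6ka3 fell by 1.16. Of 9 coregulators and turnover factors, 2 rose and 3 fell. Nab2 rose by 1.14, a call lost without either Flag array (1.27), while Fbxw7, whose ubiquitin ligase targets Jun, fell by 0.94, and Nab1, the other EGR corepressor, fell by 0.49, a call lost without either Gadd45a array (-0.40) or either G39A array (-0.53). Of 18 AP-1 targets, 7 rose and 4 fell. The collagenase gene Mmp13 rose by 3.93 (SE 0.18; limma, adjusted p = 0.000279), Mmp3 by 2.34 and Vegfa by 1.72, while Sprr1a fell by 2.13 and Ccnd1 fell by 1.43. Of 10 EGR targets, 6 rose and 1, Pdgfa, fell, by 0.99. Nab2 is on this list too and is counted again among those that rose. Fibronectin (Fn1) rose by 2.91, Icam1 by 2.52 and Ptges, a prostaglandin E synthase, by 1.79. Their median was 0.996, against 0.11 for all genes. Fn1 is also 1 of the 10 fibroblast markers, whose median was 2.20.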

How the data were processed

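Gene expression was measured on 6 Agilent 1-colour arrays. Per the file headers, the deposited intensity values are Feature Extraction's processed signals: it subtracted background, removed spatial trends and set dim spots to surrogates, with no scaling between arrays. The submitters' processing notes give Agilent Feature Extraction 10.7. The deposited 0 or 1 marks (other values) record outliers, saturation and whether a spot stood well above background, and no spot was saturated. The deposited log2 value table, an alternative here, followed each array's intensity and had nearly equal column medians (6.17). How the authors made it is not given in the sources used here, and its sorted columns differed by at most 0.084.

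Unflagged spots of a probe were averaged, and log2 values were taken relative to the 75th percentile of the array. Probes were named by the files, and through RefSeq accessions (GRCm38.p6) where matched, for 27668 of 41174. A gene was its probe of highest mean signal. Probe positions are mm9, per the file headers, and without an mm9 annotation no exon is given. Groups were compared with limma 3.58 in R 4.3 over all 6 arrays without a block, and replicate 2 with 1 with the group as covariate. P-values were Benjamini-Hochberg adjusted over 15650 genes, with a threshold of 0.05. The steps were tested on simulated data, where changes of 1 and 2 (log2) between the replicate numbers were recovered for 39% and 72% of genes. Precision is limited by having 6 arrays: the median SE between groups was 0.32 (log2), and 0.12 with the block.

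Arrays of the same number deviated together (correlations of deviations from the group means 0.911 to 0.915), so the number was used as a block in an alternative. Other alternatives were normexp background correction, quantile normalization, the deposited table, other filters on dim probes, the mean of a gene's probes, the slide as a random block and leaving out each array. The members and lists were chosen with earlier results of these data known. Genes named from a list are its 3 of smallest p or the 2 largest each way. Some genes that this rule names are not reported here.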

Additional observations from a re-analysis of the deposited data

Results flagged for a closer look

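For 4 members the difference between replicate 2 and replicate 1 took opposite signs in the groups, which singled them out. Each group has 1 array of each number, and the difference between the groups was not tested. Egr1 differed by -0.02 in Gadd45a, -0.42 in G39A and 0.13 in Flag cultures (log2, replicate 2 minus replicate 1). Egr3, near background, differed by 0.01 in Gadd45a, -0.74 in G39A and 0.49 in Flag cultures. It was not well above background on the Gadd45a replicate 1 and G39A replicate 2 arrays. For Fosl1 the values were 0.05 in Gadd45a, 0.02 in G39A and -0.13 in Flag cultures. Those of Jund were -0.08 in Gadd45a, 0.08 in G39A and 0.10 in Flag cultures. The Fosl1 and Jund values are small beside the differences of Fos and Egr2, which were no closer to 0 in any group than -1.25 for Fos and -1.29 for Egr2.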

How the results depend on the processing

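The calls of Fos, Egr2, Fosl2 and Jun between the replicate numbers held under the 7 alternatives to processing and fit (2 other filters on dim probes, normexp background correction, quantile normalization, the deposited log2 table, the mean of a gene's probes, no group covariate) and without any 1 array. Without 1 array the Fos difference ranged from -1.81 to -1.45, Egr2 from -1.56 to -1.39, Fosl2 from 1.05 to 1.33 and Jun from 0.68 to 0.83, and genes called from 6396 to 6894 against 8821. Some uncalled replicate differences changed sign, and Egr3 had no value where all 6 arrays had to be well above background. With normexp Egr3 was 0.082. With quantile normalization Egr3 was 0.11, Fosl1 0.037 and Jund -0.17, and Junb passed at -0.35. In the deposited table Egr3 was 0.10, Fosl1 0.031 and Jund -0.17, and Junb passed at -0.35. Leaving out 1 array gave Egr1 -0.22 to 0.053, Egr3 -0.36 to 0.25, Fosl1 -0.058 to 0.034 and Jund -0.0042 to 0.089. The replicate calls of Nab1 (-0.49) and Nab2 (1.14) were lost with dim probes kept (adjusted p = 0.0601 and 0.068, limma). That of Nab1 was also lost without either Gadd45a array (-0.40) or either G39A array (-0.53), that of Nab2 without either Flag array (1.27), and that of Ptgs2 without either G39A array (-1.77) or either Flag array (-1.83). Between groups, Egr2 in Gadd45a against Flag ranged from -1.38 to 0.10 without 1 array, Fos from -1.11 to 0.53 and Nab2 from -1.32 to 0.55 in fits without the block. A fit without a Gadd45a or Flag array sets 1 array against arrays of both numbers and also holds the difference between the numbers. Fosl1 stayed at 0.53 to 0.66 and Egr1 at -0.60 to -0.47. The other 21 fitted member differences between groups, none past the threshold in any setting, changed sign in 14 of 165 alternative values and in 29 of 126 without 1 array. With the slide as a random block, which leaves 1 array alone on its slide, limma called 19 genes in Gadd45a against Flag, 3 in G39A against Flag and 7 in Gadd45a against G39A, none of them a member. The replicate block changed no call. Fosl1 minus Egr1 between the replicate numbers ranged from -0.28 to 0.45 without 1 array and was 0.08 with signs turned within groups as the replicate block (exact p = 0.75). The Gadd45a contrast of that value ranged from 1.03 to 1.18. The cause of these shifts was not tested. With 2 arrays a group, the precision limits what the group comparisons can show.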
